A study of Mus musculus with 4 samples.

Results

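The crystallin genes followed here were Cryaa, Cryab, Cryba1, Cryba2, Cryba4, Crybb1, Crybb2, Crybb3 and Crygs, 9 of the 22558 gene symbols listed for mouse retina. They were picked by symbol, with their levels in these libraries already known, so that their differences are given as descriptions and without a test. Retinas came from Fezf2 knockout (KO) mice and from wildtype control littermates, on the background strain that the labels write as C57/BL/6J, aged 7 days (P7) or 14 days (P14) after birth. Each genotype and age had 1 library, 4 in all, so that nothing here measures the spread between mice or dissections. The sources used here do not say which part of Fezf2 the KO allele lacks, or how many mice or retinas went into a library.

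Crystallins are the abundant soluble proteins of the eye lens. The α-crystallins, encoded by Cryaa and Cryab, are small heat shock proteins that keep other proteins from aggregating. The β- and γ-crystallins form a separate superfamily of compact structural proteins that pack densely in lens fibre cells and give the lens its refractive power. Several members are also transcribed outside the lens, in retinal neurons, glia and pigment epithelium, and Cryab is made in many tissues as a stress protein. Crystallin RNA in a retinal preparation can thus come from retinal cells or from lens cells carried over, and in bulk RNA fewer cells of a type and less RNA per cell cannot be told apart.

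Levels are given in FPKM, fragments per kilobase of transcript scaled to the mapped total of the library, with the lower and upper bound deposited for each value. FPKM is scaled by transcript length, so levels of different genes can be set side by side. The bounds cover counting error within 1 library only, and a gene is called higher or lower where its bounds in the compared libraries lay apart. Counts over gene lists also ask for a floor of 1 FPKM in either library, unless said otherwise. Differences were computed on log2(FPKM + 1), a scale that shrinks the changes of low genes. Between 12443 and 12669 genes reached 1 FPKM in a library. The widths of the bounds placed the sequencing depth of the KO P7 library at 0.959 times, of the control P14 library at 0.793 times and of the KO P14 library at 1.05 times that of the control P7 library. Fezf2 was at 8.32 and 0.592 FPKM in the control and KO libraries at P7 and at 4.02 and 0.126 FPKM at P14, which agrees in direction with the labels. Retinal identity was clear in all 4 libraries, with Nrl, the transcription factor gene of rod photoreceptors, between 693 and 1231 FPKM. The 7 neural retina markers summed to 2070 and 2119 FPKM in the control and KO libraries at P7 and to 3289 and 3486 FPKM at P14.

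The 9 genes comprised a high one, Cryab, and 8 low ones. Cryab held 83.4% and 64.5% of the summed crystallin FPKM in the control and KO libraries at P7, and 72.3% and 89.5% at P14. The other 8 genes summed to 6.12 FPKM in the control P7, 18.1 FPKM in the KO P7, 14.6 FPKM in the control P14 and 4.75 FPKM in the KO P14 library. Their sum was thus high in the KO library at P7 and in the control library at P14. Of these 8, Crygs was listed at 0 in the control P7 library, and Cryba1, Cryba2 and Crygs were listed at 0 in the KO P14 library, which was the deepest of the 4. A value listed at 0 has both bounds at 0, so its bounds carry no counting error and no fold against it is given.

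**Figure D1:**
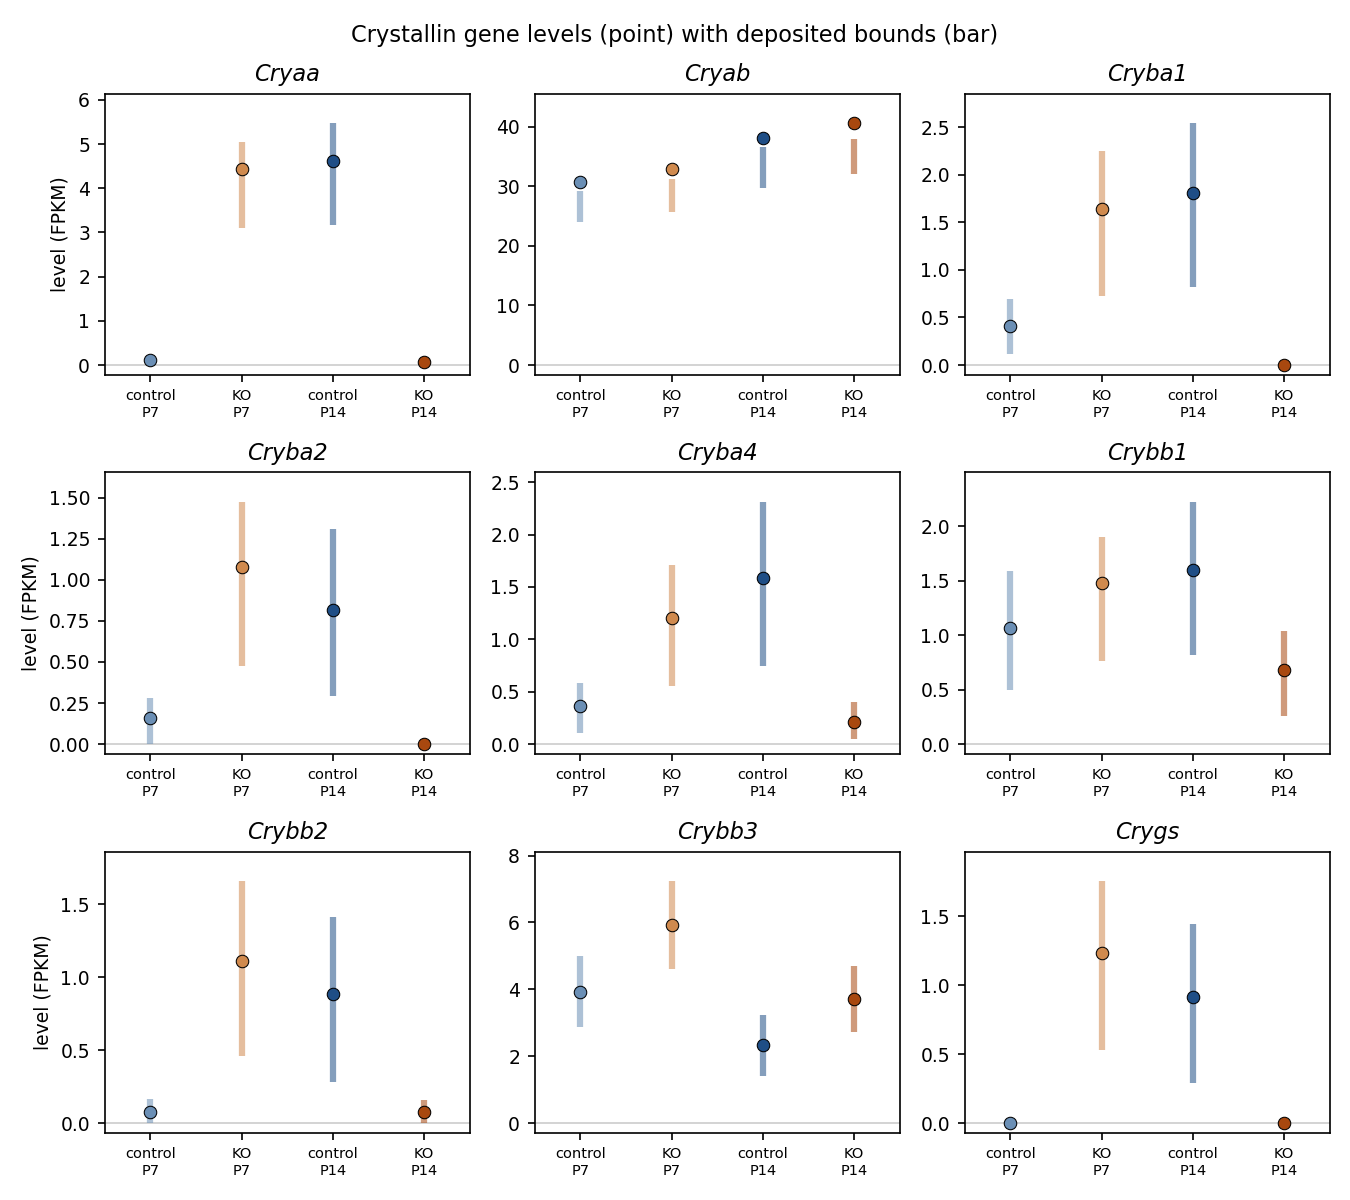
Level of each of the 9 crystallin genes in FPKM (vertical axis, linear, scaled separately for each gene) in the 4 libraries. Points are the deposited FPKM and bars run from its lower to its upper bound. Cryaa, Cryba1, Cryba2, Crybb2 and Crygs are high in the KO P7 and control P14 libraries and low in the others, whereas Cryab lies between 30.8 and 40.7 FPKM throughout.

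Among the α-crystallins, Cryaa differed most between libraries. The gene, which encodes the lens-enriched αA subunit, spans bases 31814890 to 31818669 of chromosome 17 (mm9, the build of all positions up to the promoters). Cryaa was at 0.122 FPKM in the control P7 library (bounds 0 to 0.236), 4.43 FPKM in the KO P7 library (3.10 to 5.04), 4.63 FPKM in the control P14 library (3.18 to 5.48) and 0.0779 FPKM in the KO P14 library (0 to 0.161). The 2 high libraries were of opposite genotype and age, and their bounds overlapped each other and no bound of the low libraries. At P7 the log2 difference of KO minus control was 2.27, and the bounds put the KO level at least 13.2-fold higher. At P14 the log2 difference was -2.38, and the bounds put the KO level at least 19.7-fold lower. The widths of the bounds imply about 70.6 and 56.4 fragments behind the high Cryaa values, if they span 2 standard deviations of a counting error. A lower bound of 0 then goes with 4 fragments or fewer.

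Cryab, which encodes the widely expressed αB subunit, did not follow Cryaa. It spans bases 50560863 to 50564738 of chromosome 9. Cryab was at 30.8 FPKM in the control P7, 32.9 FPKM in the KO P7, 38.0 FPKM in the control P14 and 40.7 FPKM in the KO P14 library, with about 372 to 567 implied fragments. The bounds of the genotypes overlapped at both ages (24.1 to 29.2 and 25.7 to 31.3 at P7, 29.7 to 36.5 and 32.1 to 38.0 at P14), and the log2 differences were 0.09 and 0.10. The interval that the bounds allow for the log2 difference ran from -0.18 to 0.36 at P7 and from -0.18 to 0.35 at P14. The deposited Cryab level lay above its own upper bound in all 4 libraries, so its bounds are compared only with bounds. This was not particular to Cryab, since 1787 to 2217 symbols in a library had a level above their upper bound. Calls compare bounds with bounds for every gene. Cryab was the highest of the 9 genes in every library, with bounds apart from the next gene in each.

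The acidic β-crystallins Cryba1, Cryba2 and Cryba4 were high in the same libraries as Cryaa, at lower levels. Cryba1, whose single transcript gives the βA3 and βA1 proteins, lies on chromosome 11 from base 77532234 to 77538795. Cryba1 was at 0.412 FPKM in the control P7 library (bounds 0.116 to 0.697), 1.64 FPKM in the KO P7 library (0.729 to 2.25) and 1.81 FPKM in the control P14 library (0.824 to 2.55), and was listed at 0 in the KO P14 library. It was called higher in the KO library at P7, by a narrow margin between the bounds, and lower at P14. Cryba2, on chromosome 1 from base 74936518 to 74939709, was at 0.159 FPKM in the control P7 library (0 to 0.282), 1.08 FPKM in the KO P7 library (0.473 to 1.48) and 0.820 FPKM in the control P14 library (0.292 to 1.31), and was listed at 0 in the KO P14 library. It was likewise called higher in the KO library at P7 and lower at P14. Cryba4, on chromosome 5 from base 112675553 to 112681522, was at 0.361 FPKM in the control P7 library (0.105 to 0.580), 1.21 FPKM in the KO P7 library (0.552 to 1.71), 1.58 FPKM in the control P14 library (0.749 to 2.31) and 0.207 FPKM in the KO P14 library (0.0504 to 0.403). Its bounds overlapped at P7, by a narrow margin, and at P14 the KO level was lower by at least 1.86-fold from the bounds.

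The basic β-crystallins did not all share this order. Crybb2, on chromosome 5 from base 113487285 to 113497786, was at 0.0760 FPKM in the control P7 library (bounds 0 to 0.164), 1.11 FPKM in the KO P7 library (0.458 to 1.66), 0.883 FPKM in the control P14 library (0.283 to 1.41) and 0.0727 FPKM in the KO P14 library (0 to 0.157). The log2 difference of KO minus control for Crybb2 was 0.97 at P7, where the bounds allow 0.32 to 1.41, and -0.81 at P14, where they allow -1.27 to -0.15. Crybb1, on chromosome 5 from base 112684841 to 112698602, was at 1.06 FPKM in the control P7, 1.48 FPKM in the KO P7, 1.60 FPKM in the control P14 and 0.678 FPKM in the KO P14 library. It was also highest in the KO P7 and control P14 libraries, but its bounds overlapped in both genotype comparisons. Crybb3, on chromosome 5 from base 113504859 to 113510604, was at 3.93 FPKM in the control P7 library (2.86 to 5.01), 5.93 FPKM in the KO P7 library (4.62 to 7.25), 2.32 FPKM in the control P14 library (1.41 to 3.23) and 3.71 FPKM in the KO P14 library (2.73 to 4.70). It had its highest level in the KO P7 library and its lowest in the control P14 library, where Cryaa was high. Its log2 differences of KO minus control were 0.49 at P7 and 0.51 at P14, with overlapping bounds at both ages.

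Crygs, which encodes the γS-crystallin, was seen in 2 of the 4 libraries. It spans bases 22805276 to 22811483 of chromosome 16. It was listed at 0 in the control P7 and KO P14 libraries, and stood at 1.23 FPKM in the KO P7 library (bounds 0.527 to 1.76) and 0.911 FPKM in the control P14 library (0.289 to 1.45). The libraries with and without Crygs were thus the same as for Cryaa. Cryba1, Cryba2, Crybb2 and Crygs rested on about 9.0 to 15.4 implied fragments each in the 2 libraries where they were high. Apart from Cryab, Crybb3 and Cryaa, the neighbours in the order of levels mostly had overlapping bounds in each library, so the order among the low members was not resolved at this depth.

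Counted together, at P7 5 of the 9 members were called higher in KO than in control retina and 0 lower, namely Cryaa, Cryba1, Cryba2, Crybb2 and Crygs. All 9 reached 1 FPKM in at least 1 of the P7 libraries, where 7.34% of 12656 genes were called higher and 6.09% lower (4.50% and 4.01% of all 21786 genes without a floor). At P14, 6 members were called lower and 0 higher when no floor was set, namely Cryba4 and the same 5 genes. Without a floor, 5.29% of 21786 genes were called lower and 4.70% higher at P14. With a floor of 1 FPKM, which Cryba2, Crybb2 and Crygs did not reach at P14, 3 of 6 members were called lower, against 8.25% of 12795 genes called lower and 7.46% higher. By a rule of 2-fold or more on log2(FPKM + 1), 2 members were higher at P7 (Cryaa and Crygs), against 0.119% of genes higher and 0.174% lower, and 3 were lower at P14 (Cryaa, Cryba1 and Cryba4), against 0.250% lower and 0.0547% higher. The median log2 difference of the 9 members was 0.84 at P7 and -0.86 at P14, where the medians of all genes tested were 0.01 and 0.00. The members were chosen with these differences known, so the counts are not independent evidence of a direction.

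Cryaa, Cryba1, Cryba2, Crybb2 and Crygs were each higher in the KO library at P7 and lower in it at P14, with bounds apart at both ages. Of all 21786 genes, 142 (0.652%) were called in this way, 60 (0.275%) in the opposite way, 183 (0.840%) higher at both ages and 190 (0.872%) lower at both. The P7 and P14 comparisons share no library. At P14 the KO values of Cryba1, Cryba2 and Crygs were listed at 0, as was the control value of Crygs at P7. Bounds of 0 carry no counting error, so those calls needed only a lower bound above 0 in the other library. The 5 genes summed to 0.769 FPKM in the control P7, 9.49 FPKM in the KO P7, 9.05 FPKM in the control P14 and 0.151 FPKM in the KO P14 library. The sums of the high libraries were close to each other, while the low sums belonged to libraries of opposite genotype and age. Neither genotype nor age alone separated the high from the low libraries.

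**Figure D2:**
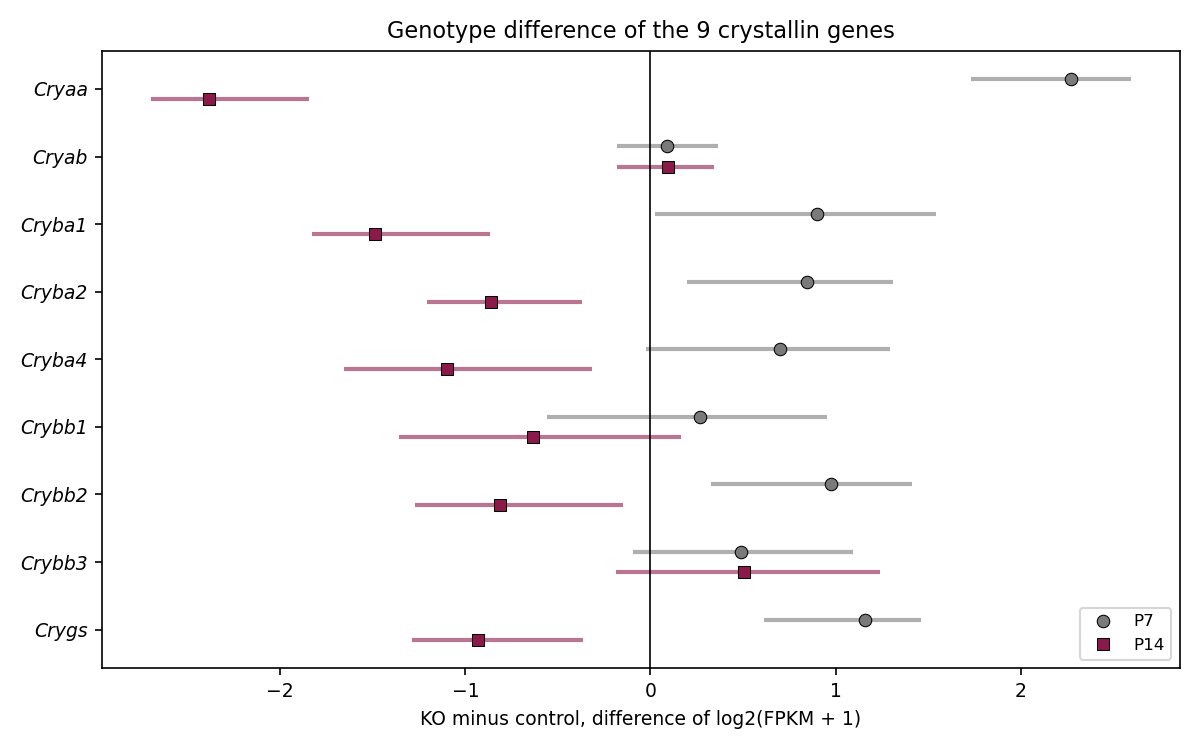
KO minus control difference of log2(FPKM + 1) for each of the 9 crystallin genes at P7 (circles) and P14 (squares). Lines span the differences that the deposited bounds allow. Cryaa lies at 2.27 and -2.38, and Cryab and Crybb3 lie on the same side at both ages with lines that cross 0.

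Set against age without a floor, Cryaa, Cryba1, Cryba2, Cryba4, Crybb2 and Crygs were called higher at P14 in the control and lower in the KO retina. The share of all genes called in opposite directions with age was not computed, so this pattern has no background. Some of these calls rest on values listed at 0, of Crygs in the control P7 library and of Cryba1, Cryba2 and Crygs in the KO P14 library. The age comparisons use the same 4 libraries as the genotype comparisons and add no independent data. In the control retina, 7 of the 9 members were called higher at P14 than at P7 and 0 lower without a floor, where 18.2% of 21786 genes were called higher and 24.5% lower. In the KO retina, 6 members were called lower at P14 and 1, Cryab, higher, where 25.4% of genes were called lower and 19.4% higher. With the floor of 1 FPKM, 4 of 6 members were higher with age in the control (27.6% of genes higher, 37.7% lower), and 6 of 9 were lower and 1 higher in the KO retina (39.4% lower, 29.0% higher). The 2-fold rule left 1 member higher in the control (7.10% of genes higher, 6.91% lower) and 4 lower in the KO retina (7.89% lower, 7.74% higher). The median log2 difference of P14 minus P7 was 0.81 in the control and -0.98 in the KO retina, and that of all genes tested was -0.08 and -0.09. Cryab was the member called higher with age in both genotypes, with log2 differences of 0.30 in each. The margin was narrow, at least 1.01-fold in the control and 1.03-fold in the KO retina from the bounds. Crybb3 had log2 differences of -0.57 and -0.56, with overlapping bounds in each genotype.

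**Figure D3:**
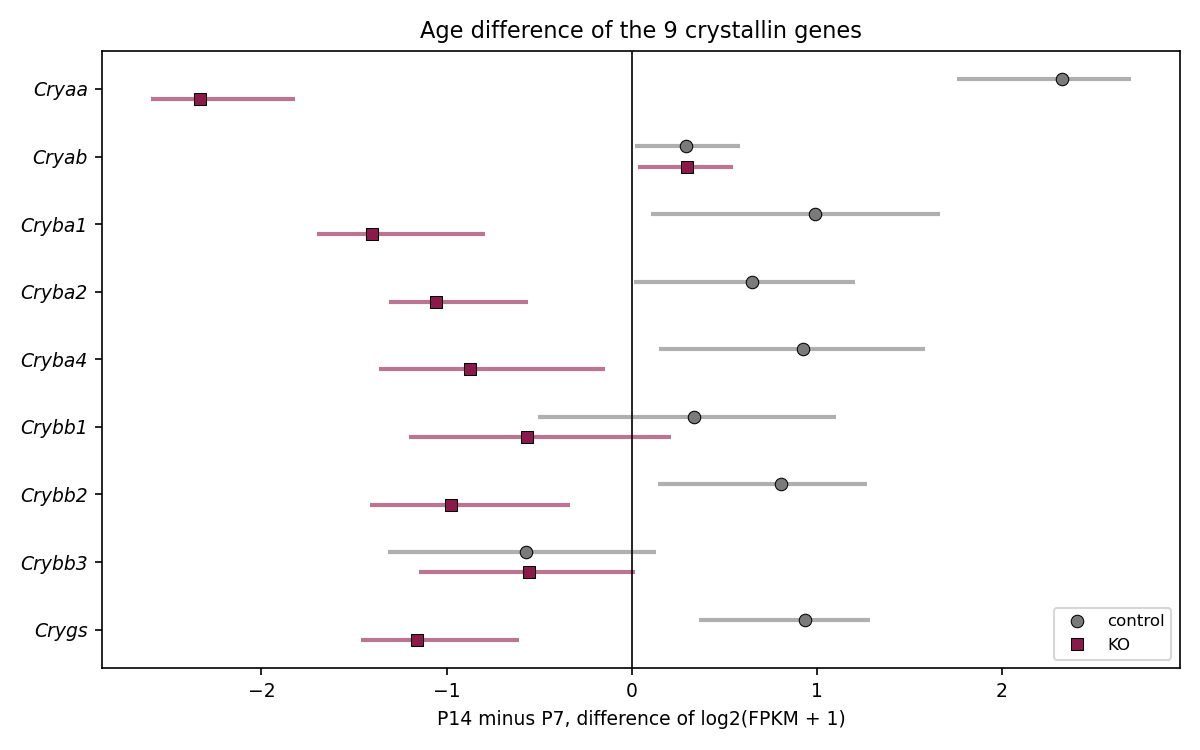
P14 minus P7 difference of log2(FPKM + 1) for each of the 9 crystallin genes in the control (circles) and KO (squares) retina, with lines that span the differences the deposited bounds allow. Cryab lies at 0.30 in both genotypes, whereas Cryaa lies at 2.33 in the control and at -2.33 in the KO retina.

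Among 14 other genes with a crystallin name or domain, the γ-crystallin cluster differed most at P7. Cryga to Crygf lie close together on chromosome 1 and encode near-identical lens fibre proteins, so that 36-base reads may be split between them and single values are uncertain. Together these 6 genes summed to 0.660 FPKM in the control P7, 8.41 FPKM in the KO P7, 1.35 FPKM in the control P14 and 0.738 FPKM in the KO P14 library. They were thus high in the KO P7 library alone. At P7, Crygb was at 1.96 against 0.0328 FPKM, Crygd at 1.58 against 0.115 FPKM and Cryge at 1.37 against 0.113 FPKM in the KO and control libraries, and these 3 and Crygc were called higher. At P14, 0 of the 6 were called in either direction. The summed level of Cryga to Crygf was 0.886 times that of the 5 crystallins above in the KO P7 library and 0.150 times in the control P14 library. In the libraries where those 5 were low, it was 0.858 times (control P7) and 4.90 times (KO P14). The 2 libraries where the 5 were high thus differed in this ratio. It rests on few fragments, about 15.4 for Crygb in the KO P7 library, and on reads that may be split.

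Outside the γ-crystallins, none of these 14 other genes was called in a genotype comparison at the floor. Crym, which encodes a thyroid hormone-binding protein, was at 308 and 323 FPKM in the control and KO libraries at P7 and at 70.2 and 73.2 FPKM at P14. Its level was lower at P14 in both genotypes (log2 difference -2.12 and -2.13), with overlapping bounds between the genotypes at each age. Cryzl1, related to the quinone oxidoreductase gene Cryz, was at 8.22 and 6.88 FPKM at P7 and at 23.7 and 22.3 FPKM at P14, in the same order of genotypes. Cryz was at 13.1, 13.8, 12.9 and 12.5 FPKM in the libraries of P7 (control, KO) and P14 (control, KO), and Crybg3 at 6.21, 5.92, 1.87 and 1.98 FPKM. Of the 14 other genes, 10 reached 1 FPKM at P7 and 4 of these were called higher in the KO library, all of them γ-crystallins. At P14, 5 reached 1 FPKM and 0 were called. Over all genes at the floor, 7.34% were higher and 6.09% lower at P7, and 7.46% higher and 8.25% lower at P14.

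Lens genes that encode no crystallin were not called between the genotypes. The list of 9 such markers comprises the membrane proteins Mip and Lim2, the beaded filament proteins Bfsp1 and Bfsp2, the connexin Gja3, and Lgsn, Grifin, Birc7 and Foxe3. Their sum was 4.03 FPKM in the control P7, 4.03 FPKM in the KO P7, 3.62 FPKM in the control P14 and 3.99 FPKM in the KO P14 library. Bfsp2, Lgsn and Bfsp1 held most of this sum in each library, so it says little about the others. None of the 9 was called in either genotype comparison, and their log2 differences ran from -0.29 to 0.17 at P7 and from -0.06 to 0.16 at P14. Foxe3, the transcription factor gene of lens epithelium, was listed at 0 in all 4 libraries, Gja3 in both KO libraries, Grifin in the control P7 library, and Birc7 in the control P14 library. Mip, the major membrane protein of lens fibres, was at 0.225, 0.192, 0.369 and 0.352 FPKM in the libraries of P7 (control, KO) and P14 (control, KO). Bfsp2, at 1.73 to 2.14 FPKM, was the highest of the 9, and apart from Bfsp2 and Lgsn they stayed under 1 FPKM in every library, where small differences were not detectable at this depth. Of the 15 lens markers with Cryga to Crygf included, 7 reached 1 FPKM at P7 and 1 at P14. With or without the floor, 4 were called higher and 0 lower at P7, and 0 were called at P14. The wider lens list of 16 genes, of which 4 reached the floor at each age, had 0 called in either genotype comparison. Over all genes at the floor, 7.34% were higher and 6.09% lower at P7, and 7.46% higher and 8.25% lower at P14.

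**Figure D4:**
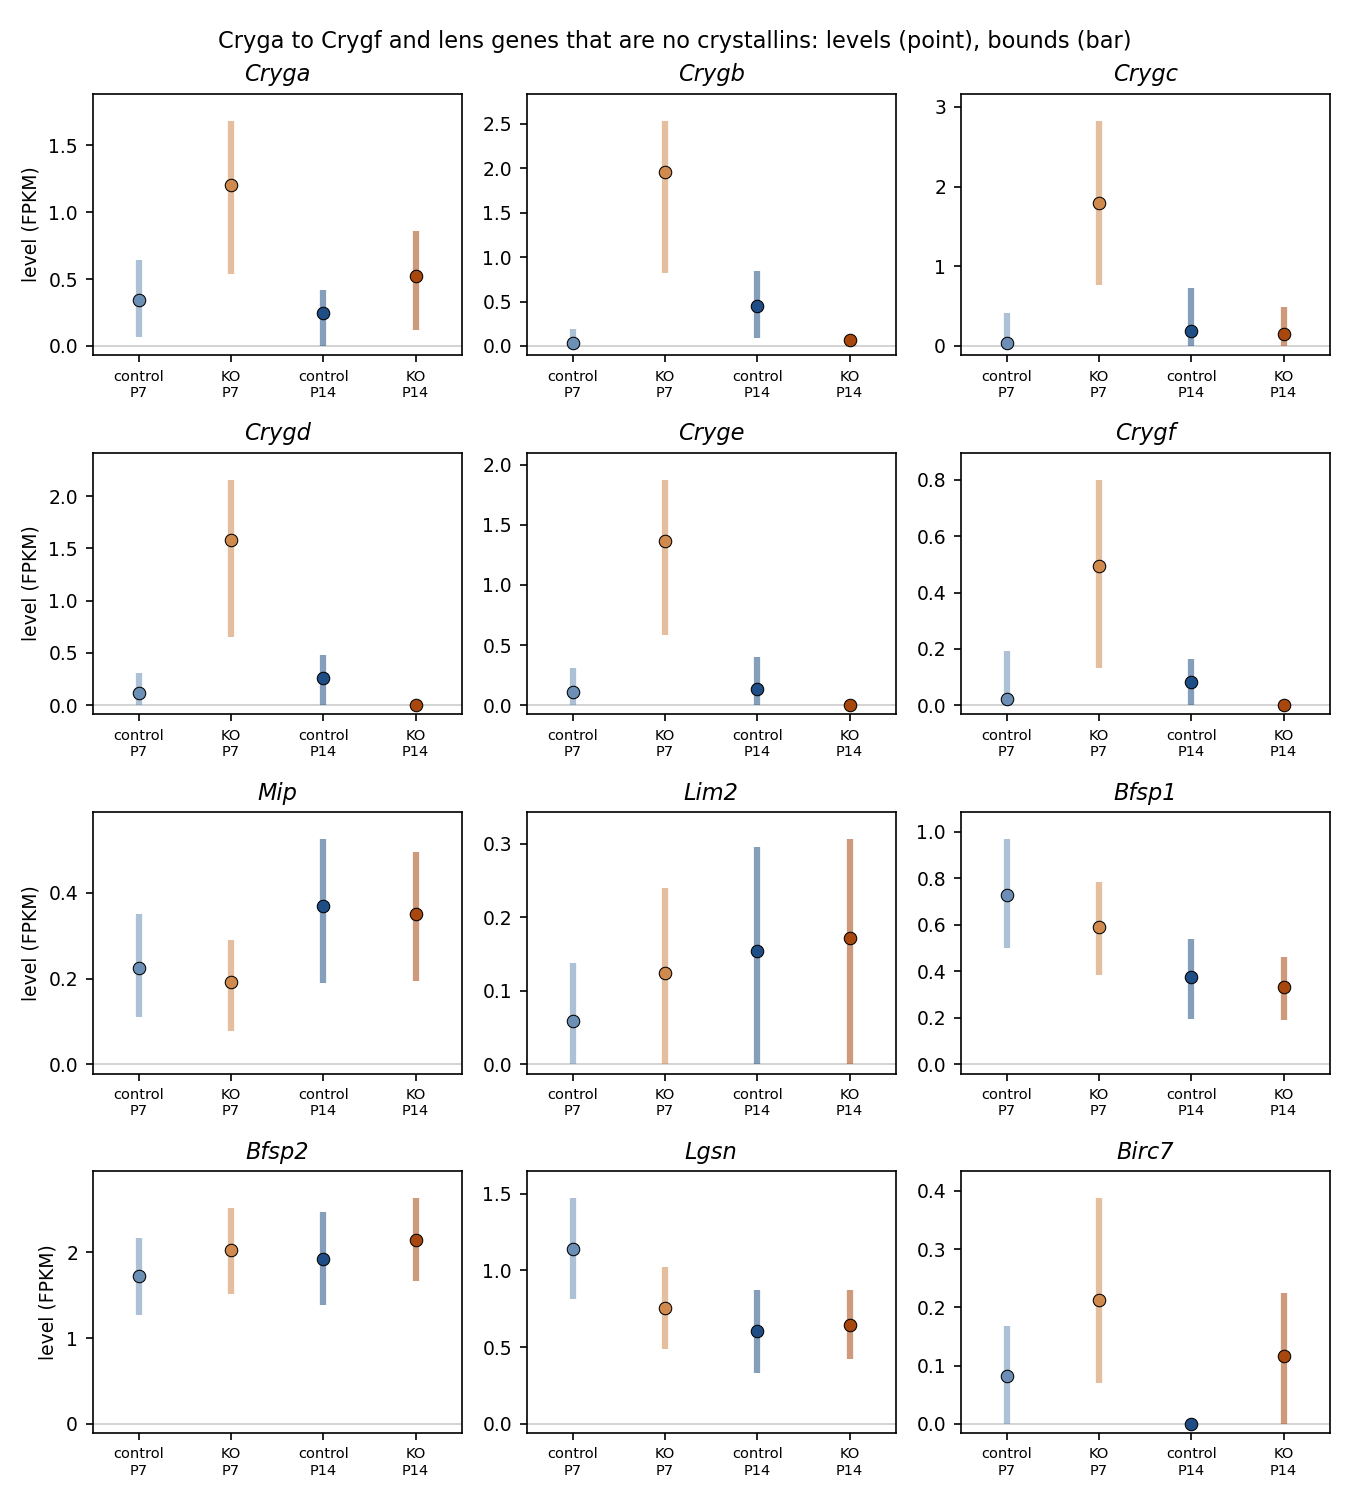
Levels in FPKM (linear vertical axes, scaled per gene) of Cryga to Crygf and of 6 lens genes that encode no crystallin in the 4 libraries, with bars from the lower to the upper deposited bound. All 6 γ-crystallin genes are highest in the KO P7 library, with bounds apart from the control for Crygb, Crygc, Crygd and Cryge, while the bounds of Mip, Lim2, Bfsp1, Bfsp2, Lgsn and Birc7 overlap between genotypes at both ages.

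Genes of tissues next to the retina moved in part with the crystallins. Of 12 genes of ciliary body, iris and vitreous, 11 reached 1 FPKM at each age. Of these, 6 were higher and 1 lower by the bounds in KO retina of P7, and 0 higher and 9 lower at P14. The 12 genes summed to 113 and 146 FPKM in the control and KO libraries at P7 and to 164 and 94.9 FPKM at P14. Of 13 pigment epithelium genes, 9 reached 1 FPKM at P7 and 11 at P14. By the bounds, 3 were called higher and 0 lower at P7, and 0 higher and 8 lower at P14. The 13 genes summed to 110, 128, 226 and 165 FPKM in the libraries of P7 (control, KO) and P14 (control, KO). Of 5 erythroid genes, 1 was called higher at P7 and 5 lower at P14, with sums of 291, 339, 1180 and 356 FPKM. The erythroid gene called at P7 was Hba-a2, named after its values were seen, at 0.0201 and 22.8 FPKM in the control and KO libraries at P7 and at 40.1 and 0.0186 FPKM at P14. Hba-a2, an α-globin gene, was thus high in the same libraries as Cryaa, but it is a near-identical copy of Hba-a1, so that reads may be split between them and its values are uncertain. Hba-a1 was at 216 and 232 FPKM at P7, with overlapping bounds, and at 826 and 247 FPKM at P14. The sums of all 3 lists had the same order of genotypes as the 5 crystallins at each age. Of all genes at the floor, 7.34% were called higher at P7 and 8.25% lower at P14. None of the markers of these 3 lists was listed at 0, all 6 cornea markers stayed under 1 FPKM (0.370 to 0.636 FPKM in sum), and the part of these tissues in the crystallin levels was not tested.

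**Figure D5:**
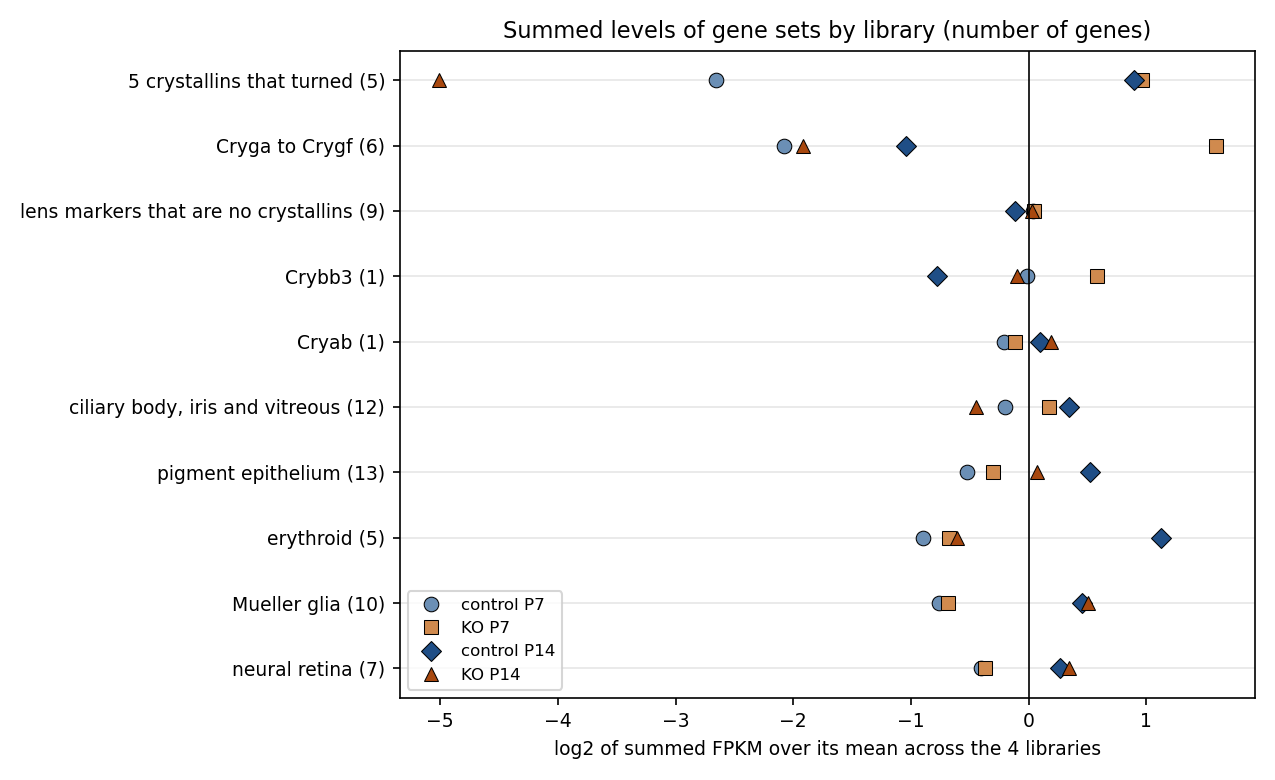
Summed FPKM of gene sets in each library, as log2 of the sum over its mean across the 4 libraries (number of genes in brackets). The 5 crystallins lie near 0.96 and 0.90 in the KO P7 and control P14 libraries and at -2.66 and -5.01 in the others, whereas the lens markers that are no crystallins lie between -0.11 and 0.04. Bfsp2, Lgsn and Bfsp1 hold most of that lens marker sum in each library, so it says little about the other lens markers.

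Markers of retinal glia and ganglion cells are given for comparison. Of 10 Mueller glia markers, 3 were called higher and 1 lower at P7, and 3 higher and 2 lower at P14, with sums of 1114, 1174, 2577 and 2682 FPKM in the order above. Of 11 markers of astrocytes and reactive glia, 8 reached 1 FPKM at each age. Of these 8, 0 were called at P7 and 3 were called higher at P14, or 4 of the 11 without a floor. The 11 markers summed to 219 FPKM in control and 351 FPKM in KO retina at P14. Of 10 ganglion cell markers, 4 were called higher at P7 and 8 at P14, and 0 lower at either age. Of all genes at the floor, 7.34% were called higher and 6.09% lower at P7, and 7.46% higher and 8.25% lower at P14. The shares called higher were above this background for ganglion cell and Mueller glia markers at both ages, and for astrocyte markers at P14. Only 1 and 2 Mueller glia markers were called lower, too few to set against it. Genes of high level have narrow bounds for their level and are called at smaller differences. Many of these markers lay far above the floor, such as Nefl at 235 FPKM in the control P7 library. A background of matched level was not computed, so these shares are not read as an excess. Median log2 differences at P7 and P14 were small, 0.15 and 0.28 for ganglion cell and -0.05 and 0.03 for Mueller glia markers. At P14 the called ganglion cell and astrocyte markers were thus higher in the KO library, where the 5 crystallins were lower.

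The genes whose profile over the 4 libraries lay nearest to that of Cryaa were Optc, Fbln1 and Crhbp. Likeness was the Euclidean distance between centred profiles of log2(FPKM + 1) among 2528 genes of at least 2 FPKM with a range of at least 1. Optc, which encodes the vitreous proteoglycan opticin, came first at a distance of 0.75, with 3.22, 19.5, 39.1 and 4.17 FPKM in the libraries of P7 (control, KO) and P14 (control, KO). The matrix gene Fbln1 came next (1.23), and then Crhbp, which encodes a binding protein of corticotropin-releasing hormone (1.40). In the low libraries Optc was still above 3 FPKM, where Cryaa rested on 4 implied fragments or fewer. Nearest to the mean profile of the β- and γ-crystallin members were the gap junction gene Gja1 (0.26), Fam129a (0.46) and Nxph1 (0.52). Nearest to Cryab, among 12037 genes with no minimum range, were N28178, 1500032L24Rik and Adi1, all within 0.03, which says little for a profile that hardly varied.

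Neighbouring genes on the chromosomes did not share the crystallin pattern. Of the 14 nearest loci that reached 1 FPKM in any library and were no members, 13 reached it at P7 and 14 at P14. By the bounds, 0 were higher and 2 lower in KO retina of P7, and 2 higher and 2 lower at P14. Over all genes at the floor, 7.34% were higher and 6.09% lower at P7, and 7.46% higher and 8.25% lower at P14. Nufip2, whose locus ends 765 bases from Cryba1, was at 11.7 and 11.4 FPKM in the control and KO libraries at P7 and at 8.75 and 7.75 FPKM at P14. U2af1, the nearest such locus on the left of Cryaa, was at 40.1 and 43.9 FPKM at P7 and at 22.4 and 23.4 FPKM at P14. The noncoding RNA gene Miat, on the left of Cryba4, was lower in KO than in control retina, with 4.25 and 11.3 FPKM at P7 and with 0.948 and 2.59 FPKM at P14. Hspb2, a small heat shock protein gene 403 bases from Cryab, was at 0.445 and 1.05 FPKM at P7 and at 0.720 and 1.07 FPKM at P14, with overlapping bounds. Crybb1 and Cryba4 lie 3318 bases apart, and Crybb2 and Crybb3 7072 bases apart. Crybb2 was called at both ages and its neighbour Crybb3 at neither.

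Few of the factors known to drive crystallin promoters in the lens were called between the genotypes, each with bounds barely apart. Pax6, which also specifies retinal neurons, was at 106 and 98.6 FPKM in the control and KO libraries at P7, called lower, and at 91.1 and 86.7 FPKM at P14. Prox1 was called higher at P14 (29.0 against 25.8 FPKM), and Sox2 (21.1 against 17.9 FPKM) and the coactivator gene Crebbp (16.8 against 15.1 FPKM) at P7. Maf, whose protein binds crystallin promoters in lens fibres, was at 5.88 and 5.99 FPKM at P7 and at 4.17 and 4.28 FPKM at P14, with overlapping bounds. Hsf4, the heat shock factor gene of the lens, was at 0.548 and 0.393 FPKM at P7 and at 2.61 and 2.68 FPKM at P14. Of the 17 regulators, 12 reached 1 FPKM at P7, where 2 were called higher and 1 lower, against 7.34% and 6.09% of all genes. At P14, 13 reached it and 1 was called higher and 0 lower, against 7.46% and 8.25% of all genes. These counts are too small to set the regulators apart from all genes.

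Promoters are shown for 4 members that contrast in their levels: Cryaa and Cryba1, which turned between the ages, Crybb2, which did so without the motif below, and Crybb3, which did not turn. The sequences are RefSeq's for the GRCm38.p6 build, the 250 bases before the annotated start, written 5′ to 3′ on the strand of the gene. The table matched 8 of the 9 members, all but Cryab. Capitals mark TGCTGA on either strand, the core of the element bound by Maf proteins, which on the opposite strand reads TCAGCA.
Cryaa (chr17:31677681-31677930, plus strand): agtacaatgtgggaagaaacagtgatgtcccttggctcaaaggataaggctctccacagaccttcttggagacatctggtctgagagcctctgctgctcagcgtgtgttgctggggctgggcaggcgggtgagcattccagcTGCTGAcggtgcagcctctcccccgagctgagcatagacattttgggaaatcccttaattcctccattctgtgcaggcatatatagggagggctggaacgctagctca
Cryba1 (chr11:77725294-77725543, minus strand): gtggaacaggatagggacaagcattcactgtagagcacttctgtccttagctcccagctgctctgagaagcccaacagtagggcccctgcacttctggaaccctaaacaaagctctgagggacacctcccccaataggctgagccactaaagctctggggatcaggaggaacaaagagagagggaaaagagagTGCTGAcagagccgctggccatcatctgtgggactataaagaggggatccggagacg
Crybb2 (chr5:113070118-113070367, minus strand): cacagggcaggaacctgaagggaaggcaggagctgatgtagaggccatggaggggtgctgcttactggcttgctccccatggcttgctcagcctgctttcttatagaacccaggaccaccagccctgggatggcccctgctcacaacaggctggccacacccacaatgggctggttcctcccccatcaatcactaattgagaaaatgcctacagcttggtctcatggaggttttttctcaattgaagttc
Crybb3 (chr5:113081585-113081834, minus strand): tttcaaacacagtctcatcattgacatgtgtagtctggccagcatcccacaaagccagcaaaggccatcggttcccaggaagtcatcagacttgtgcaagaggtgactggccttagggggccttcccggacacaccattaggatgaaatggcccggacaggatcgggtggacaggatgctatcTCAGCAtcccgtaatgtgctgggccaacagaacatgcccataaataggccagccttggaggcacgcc

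TGCTGA stood in 7 of the 8 promoters, all but that of Crybb2, and in 16.1% of 32851 windows of the same length in the table. It began 108 bases before the start in Cryaa, 57 bases before it in Cryba1 and 67 bases before it, on the opposite strand, in Crybb3. Cryba4 held it 3 times. The motif was thus shared by members that turned and by Crybb3, which did not, and these letters do not separate the groups. TATAAA, searched on both strands, stood in the promoters of Cryba1, Crybb1 and Crygs, and in 12.4% of all windows. GAANNTTC is a pair of heat shock half-sites in a given order, and it reads the same on both strands. It stood in 0 of the 8 promoters and in 6.69% of all windows. The opposite order of the half-sites was not searched or counted over the windows, and the Cryba1 promoter printed above holds it. The 0 thus does not mean that these promoters lack paired half-sites. No 2 matches overlapped in these promoters. A match is a description of the letters and not a binding site.

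Stress genes gave a further comparison for the α-crystallins, which belong to the small heat shock proteins. Of 8 other small heat shock protein genes, 6 reached 1 FPKM in each genotype comparison and 0 were called. Hspb6 was at 26.9 and 24.1 FPKM in the control and KO libraries at P7 and at 91.1 and 101 FPKM at P14. It was higher at P14 in both genotypes, as Cryab was by a much smaller margin. Hspb8 was at 1.55 and 1.65 FPKM at P7 and at 8.49 and 8.36 FPKM at P14. Hspb1 was at 9.56 and 7.93 FPKM at P7 and at 6.87 and 7.36 FPKM at P14, with overlapping bounds in every comparison. Of 12 stress chaperone genes, 3 were higher and 0 lower by the bounds in KO retina of P7, and 1 higher and 3 lower at P14. Over all genes at the floor, 7.34% were higher and 6.09% lower at P7, and 7.46% higher and 8.25% lower at P14. Hspa5, the chaperone gene of the endoplasmic reticulum, was at 108 and 129 FPKM at P7 and at 127 and 103 FPKM at P14, called higher and then lower in the KO library. Its log2 differences of 0.26 and -0.29 had the same signs as those of the 5 crystallins. They were small, at least 1.13-fold at P7 and 1.15-fold at P14 from the bounds.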

How the data were processed

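Total RNA of retina was reverse-transcribed with random primers and read as 36-base single ends, per the labels' protocols, which name no strand marking, so overlapping genes cannot be told apart. The authors deposited FPKM per gene with a lower and an upper bound. The submitters' processing notes name the tools Cufflinks 2.1.1, TopHat2 2.0.8b and CASAVA 1.8.2 and the build mm9. No source used here gives the annotation or options. The files hold no counts, so depth is known only from the bounds, and intervals cover counting error only.

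Rows of a symbol were summed (251 symbols), 16 symbols with a failed value were left out, and the background leaves out 756 genes that are small RNAs or have a locus under 300 bases. Locus starts were shifted to count from 1. Differences were taken on log2(FPKM + 1), with bounds that did not overlap as the call and a floor of 1 FPKM in either library where stated. With 1 library per group no test was run. The members, the gene lists and the rules for named genes were chosen with earlier results of these data known. Named genes were all members, other crystallin genes, up to 4 called genes per list, the nearest loci of 1 FPKM or more, and the 3 nearest profiles; Mip, Foxe3, Maf, Hsf4, Hspb1, Hspb6, Hspb8 and Hspa5 are named for their roles or levels and were chosen after their values were seen. Some genes of the marker lists are not reported here and were left out of their lists. Alternatives were a pseudocount of 0.1 FPKM, TPM scales, centring, other call rules and other floors. Python 3.11.15, pandas 2.3.3 and numpy 2.4.6 were used.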

Additional observations from a re-analysis of the deposited data

Results flagged for a closer look

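The genotype difference turned with age for 5 of the 9 crystallin genes, which were higher in the KO library at P7 and lower in it at P14 with bounds apart at both ages. The difference between the ages was not tested, since each group had 1 library. On the log2(FPKM + 1) scale, the P7 difference less the P14 difference was 4.66 for Cryaa, 2.39 for Cryba1, 1.71 for Cryba2, 1.79 for Crybb2 and 2.09 for Crygs. The KO values of Cryba1, Cryba2 and Crygs at P14 and the control value of Crygs at P7 were listed at 0, with bounds that carry no counting error. Cryba4 had the same signs as these 5 genes, but its bounds overlapped at P7. Cryab and Crybb3 had values of -0.0034 and -0.01.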

How the results depend on the processing

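Of the 36 log2 differences of members over the 4 comparisons, 0 of those called turned sign under the TPM scales, centring or the smaller pseudocount. Their size depended on the scale. The median difference in KO against control was 1.76 at P7 and -2.51 at P14 with a pseudocount of 0.1 FPKM, 1.32 and -1.59 as TPM over all loci, and 1.35 and -1.69 as TPM without small RNAs. For P14 against P7 it was 1.87 in the control and -2.81 in the KO retina with that pseudocount, 1.34 and -1.71 as TPM, and 1.37 and -1.79 as TPM without small RNAs. TPM values were 2.39 to 2.89 times the FPKM, so that adding 1 weighs less. Centring on all genes left every difference inside its bounds.

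Counts of members depended on the floor and the fold. With a 2-fold rule, 2 were higher in the KO library at P7, 1 was higher with age in the control and 0 were higher with age in the KO retina, which was also 0 with bounds apart and 1.5-fold. Without a floor, 6 were lower in KO retina of P14 and 7 higher with age in the control. With a floor of 5 FPKM, 0 were higher at P7, 0 lower at P14, 0 lower with age in the KO and 1 higher with age in the control retina, since most members lie below it. No paired analysis was possible because each group has 1 library and the labels carry no replicate numbers, and leaving out a library leaves no comparison.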
